A study of Homo sapiens with 4 samples.

Results

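MicroRNA (miRNA) levels were compared between the parental cells of HT29 and HCT15, both established human colorectal adenocarcinoma cell lines. The members were the library labelled as HT29 parental cells and the library labelled as HCT15 parental cells, chosen by their titles, which are 2 of the 4 samples of the series. The other 2 samples are spheres of the same lines, grown with bFGF and EGF, each at 10 ng/ml, in DMEM-F12 that held N2 Plus Supplement and 1% penicillin-streptomycin. The parental HT29 cells were kept in DMEM and the parental HCT15 cells in RPMI, both with 10% FBS and 1% penicillin-streptomycin. The TruSeq Small RNA kit was used for both libraries, with 1 ug of total RNA each. The design text says that the series compared parental cells with spheres, so the comparison between lines is a second reading of the same libraries. Each group had 1 library. No test was made, and the cell line cannot be told apart from the culture medium, the deposited unit or the processing, each of which differed between both libraries. The labels give no date or batch, so a difference in when the libraries were made or sequenced cannot be told apart from the line either.

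A miRNA is cut from a hairpin precursor, first by Drosha in the nucleus and then by Dicer in the cytoplasm. One arm of the hairpin, called 5p or 3p by its place in the precursor, is usually kept by an Argonaute protein, and the other is mostly lost. The kept strand finds messenger RNAs mainly through its seed, the bases near its 5′ end, and lowers their translation and stability. In the intestinal epithelium miR-192, miR-194 and miR-215 are typical, the miR-200 family maintains the epithelial state by repressing ZEB1 and ZEB2, and the miR-371-373 cluster is best known from pluripotent stem cells and germ cell tumours.

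The mature sequences below belong to the miRNAs that set both libraries furthest apart or that show a family splitting between them. They are RefSeq sequences of GRCh38.p14, written 5′ to 3′, with bases 2 to 8 (the seed) in capitals. The first 9 were at least 8-fold higher in HT29.
miR-452-5p: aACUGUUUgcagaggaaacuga
miR-7-5p: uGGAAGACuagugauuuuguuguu
miR-185-5p: uGGAGAGAaaggcaguuccuga
miR-194-5p: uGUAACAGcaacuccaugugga
miR-192-5p: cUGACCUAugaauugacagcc
miR-215: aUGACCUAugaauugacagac
miR-18a-5p: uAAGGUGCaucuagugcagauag
miR-18b-5p: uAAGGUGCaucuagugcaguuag
miR-24-3p: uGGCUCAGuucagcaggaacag
The next 8 were at least 8-fold higher in HCT15. In this group miR-372 and miR-373-3p have the same seed.
miR-371a-5p: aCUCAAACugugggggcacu
miR-372: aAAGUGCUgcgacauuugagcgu
miR-373-3p: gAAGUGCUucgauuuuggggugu
miR-449b-5p: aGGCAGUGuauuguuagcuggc
miR-92b-3p: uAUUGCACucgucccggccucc
miR-148a-3p: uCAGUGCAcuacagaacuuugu
miR-22-3p: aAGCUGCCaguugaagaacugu
miR-155-5p: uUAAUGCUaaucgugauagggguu
The last 4 were less than 8-fold apart. All but miR-21-5p, which led both libraries, share a seed with a miRNA above.
miR-148b-3p: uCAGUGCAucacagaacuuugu
miR-92a-3p: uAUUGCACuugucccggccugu
miR-25-3p: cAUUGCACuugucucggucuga
miR-21-5p: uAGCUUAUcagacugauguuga
Counting positions from 1 at the 5′ end, miR-192-5p and miR-215 differed by C1A and C20A, and miR-18a-5p and miR-18b-5p by A20U. Between miR-148a-3p and miR-148b-3p the substitutions were C9U and U10C, and between miR-92a-3p and miR-92b-3p they were U10C, G21C and U22C. All of these lie outside the seed.

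The HT29 file gave 5806540 reads over 1921 names, and the HCT15 file gave RPKM values that summed to 516401 over 2041 names. The comparison used the 1882 names in both files, which held 99.1% of the HT29 reads and 99.6% of the HCT15 total. Each library was rescaled to 1000000 over those names, and the result is called CPM here. Low HCT15 values moved in steps of about 0.162 for a miRNA of 22 bases, which puts that library near 3183641 reads. A count of 0 allowed up to 0.521 CPM in HT29 and about 0.946 CPM in HCT15, taken as 3 reads. The ratio used throughout is log2 of (HT29 CPM + 1) over (HCT15 CPM + 1), so it understates differences of scarce miRNAs. Its counting intervals (95%, exact binomial, without the added 1 CPM) rest on the inferred HCT15 reads. They cover counting error only and say nothing of the spread between cultures.

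In bulk libraries, fewer cells with a miRNA and less of it per cell cannot be told apart. Of the 284 miRNAs that reached 50 CPM in at least 1 parental library, 69 were at least 8-fold higher in HT29 (24.3%) and 46 were at least 8-fold higher in HCT15 (16.2%). Another 61 lay within 2-fold of each other. The median ratio was 0.73, and 19 miRNAs in HT29 and 14 in HCT15 were past 64-fold. The 69 miRNAs made up 27.7% of the miRNA level in HT29 and 0.944% in HCT15, whereas the 46 made up 0.809% in HT29 and 30.9% in HCT15. The split between the directions depended on the scaling: with the upper quartile, which moved every ratio by -0.84, 47 miRNAs were at least 8-fold higher in HT29 and 66 in HCT15. Among the 157 miRNAs with at least 50 CPM in both libraries, 19 were 8-fold higher in HT29 and 12 in HCT15. At the threshold itself, miR-34a-5p (3.03) lay just inside and miR-140-5p (2.98) just outside on the HT29 side, and miR-625-3p (-3.002) and miR-4792 (-2.97) did so on the HCT15 side.

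**Figure D1:**
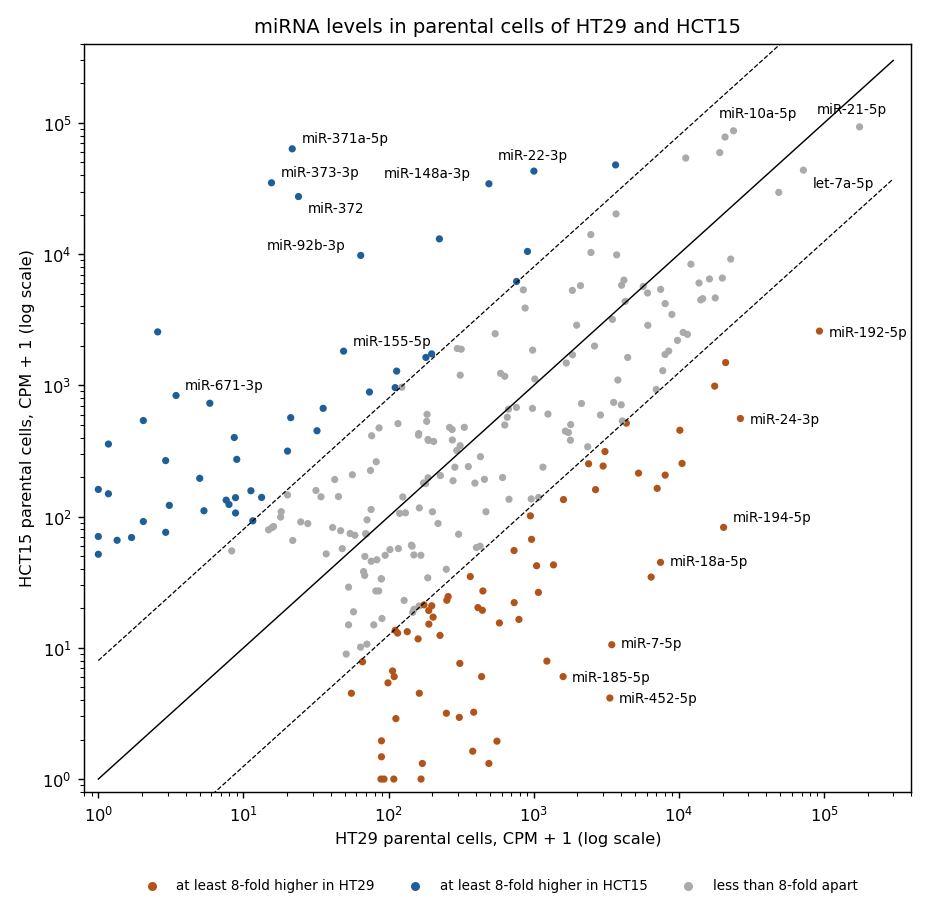
Level of each of the 284 miRNAs in HT29 (x axis) and HCT15 (y axis) parental cells, in CPM plus 1 on log scales, with 1 library per axis. The solid line marks equal levels and the dashed lines 8-fold differences; 69 orange points lie below the lower line and 46 blue points above the upper one.

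The sphere libraries gave a second library of each line, although not a replicate of the parental culture. All 69 miRNAs that were 8-fold higher in HT29 as parental cells had a ratio of the same sign in spheres, and 47 of them were again at least 8-fold apart. For the 46 on the HCT15 side these numbers were 46 and 38. Between spheres, 19.4% of 253 compared miRNAs were at least 8-fold higher in HT29 and 19.8% in HCT15. The rank correlation over the 284 miRNAs was 0.44 between the parental libraries, 0.94 between HT29 parental cells and spheres, and 0.98 between those of HCT15. These correlations are descriptions over miRNAs, and the libraries of a line share their deposited unit and file format.

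Both parental libraries were led by miR-21-5p, which is high in many carcinomas, at 175783 CPM in HT29 and 93349.6 CPM in HCT15. It was 1.88-fold higher in HT29, and its ratio of 0.91 was close to the median over all compared miRNAs. Below it the order differed. The second rank was held by miR-192-5p in HT29, at 92947 CPM, and by miR-10a-5p in HCT15, at 87202 CPM. In HCT15 miR-192-5p stood at rank 45 with 2593 CPM, and in HT29 miR-10a-5p stood at rank 6 with 23778 CPM. The 10 highest names held 52.5% of the HT29 library and 60.5% of the HCT15 library, and 4 of those names were in both sets (miR-21-5p, miR-10a-5p, miR-10b-5p and let-7a-5p). Of the 20 highest, 6 were shared, of the 50 highest 30, and of the 100 highest 67. Within a line, parental cells and spheres shared 44 of their 50 highest names in HT29 and 48 in HCT15.

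**Figure D2:**
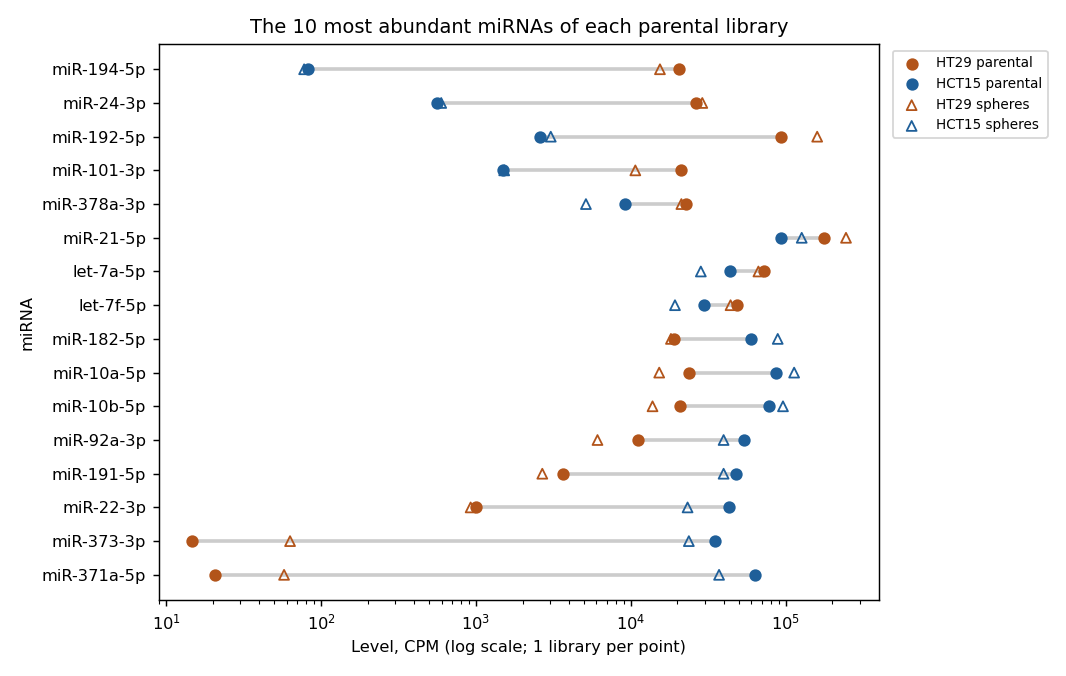
Levels of the miRNAs that were among the 10 most abundant of either parental library, in CPM on a log scale, with HT29 in orange and HCT15 in blue, parental cells as filled circles and spheres as open triangles. The grey bar joins both parental libraries; miR-371a-5p and miR-373-3p have the longest bars, and the spheres of a line lie near its parental cells.

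The miRNAs highest in HT29 relative to HCT15 came from hairpins at several loci. miR-452-5p, from the GABA receptor subunit gene GABRE, had 3343 CPM in HT29 and 3.15 CPM in HCT15, a 1062-fold difference (ratio 9.65). Its hairpin lies at chrX:151959628-151959712 on the minus strand (GRCh38.p14), in an exon of GABRE in GENCODE 29. Spheres gave 5428 and 0.863 CPM. The neighbouring miR-224-5p was also higher in HT29, at 732 against 21.1 CPM.

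miR-7-5p, which is bound by the circular RNA CDR1as, was at 3446 CPM in HT29 and 9.56 CPM in HCT15, or 360.3-fold higher in HT29. miR-185-5p, from an intron of TANGO2 at chr22:20033139-20033220 on the plus strand, was at 1592 and 5.04 CPM. In spheres both kept a difference of more than 64-fold, with 1018 and 8.74 CPM for miR-7-5p and 1185 and 3.02 CPM for miR-185-5p. Both arms of the hairpin in an intron of AATK were on the HT29 side. The level of miR-338-5p was 379 against 0.63 CPM, and that of miR-338-3p 306 against 1.95 CPM. miR-598 had 489.7 CPM in HT29 and 0.315 CPM, about 1 read, in HCT15, so the interval of its log2 ratio ran from 8.12 to 15.90.

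miR-31-3p was at 1230.4 CPM in HT29 and 6.92 CPM in HCT15. Its other arm, miR-31-5p, which is raised in many colorectal tumours, was at 13757 and 6036 CPM, a ratio of 1.19. The strands of this hairpin were thus 178-fold and 2.28-fold apart between the lines. In spheres miR-31-3p was again higher in HT29, at 106 against 16.4 CPM, while miR-31-5p was lower, at 3279 against 10411 CPM. miR-3613-5p had 169.8 CPM in HT29 against 0.315 in HCT15, and the HT29 level of miR-4664-5p was 108 CPM, with a listed value of 0 in HCT15. HCT15 had a listed 0 for 4 of the 69 miRNAs on the HT29 side.

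The largest differences in the other direction belonged to the miR-371-373 cluster. miR-371a-5p was the fourth most abundant miRNA of HCT15, at 63529 CPM or 6.35% of the library, and had 20.7 CPM in HT29, which makes it 3072-fold higher in HCT15 (ratio -11.52, interval -11.90 to -11.37). miR-373-3p was at 35016 CPM in HCT15 and 14.6 CPM in HT29. For miR-372 the levels were 27504 and 22.9 CPM, and for the less abundant arm miR-371a-3p 2557 and 1.56 CPM. Their hairpins lie side by side on the plus strand of chromosome 19, from 53787675 (MIR371A) to 53788773 (MIR373), with no host gene on that strand. The HT29 levels were low but above the 3 reads that a count of 0 allows, at 119, 84 and 132 reads. Spheres gave the same order of lines, with 57.6 CPM of miR-371a-5p in HT29 and 37133 CPM in HCT15. The miR-302 cluster is typical of embryonic stem cells, and its 3p arms have the seed of miR-372. miR-302a-3p, miR-302b-3p, miR-302c-3p and miR-302d-3p had 0 reads in HT29 and a listed 0 in HCT15, which allows the levels given above for a count of 0.

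Several abundant miRNAs of HCT15 were scarce in HT29. miR-22-3p, a widely expressed miRNA, was at 42981 CPM in HCT15 (rank 9) and 1001 CPM in HT29 (rank 85), 42.9-fold apart. The opposite arm went the other way, with 159 CPM of miR-22-5p in HT29 and 10.7 CPM in HCT15. miR-148a-3p, abundant in liver and gut and known to target DNMT1, was at 34419 CPM in HCT15 and 490.0 CPM in HT29, or 70.2-fold higher in HCT15. Its other arm, miR-148a-5p, was also higher in HCT15, at 730.2 and 4.87 CPM. miR-92b-3p was at 9785 CPM in HCT15 and 63.3 CPM in HT29.

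miR-21-3p, the arm opposite the most abundant miRNA of both lines, was 58.7-fold higher in HCT15, with 13083 against 223 CPM. miR-449b-5p, of a family that acts in multiciliated cells and is related to miR-34, was at 539 CPM in HCT15 and 1.04 CPM in HT29. Its neighbour miR-449c-5p, also intronic in CDC20B, was at 148 and 0.174 CPM, the latter from 1 read. miR-191-5p was higher in HCT15 by 13.1-fold, at 47901 against 3662 CPM. The other names with the largest ratios on this side were miR-671-3p, miR-3615 and miR-25-5p, at 837, 266 and 399.9 CPM in HCT15 and 2.43, 1.91 and 7.65 CPM in HT29.

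Strands of the miR-100 and miR-125b-1 hairpins, at the MIR100HG locus on chromosome 11, and miR-99a-5p, from the related locus on chromosome 21, were higher in HCT15. miR-100-5p was at 668 CPM in HCT15 and 34.4 CPM in HT29, and miR-99a-5p at 567 and 20.2 CPM. let-7c, the neighbour of miR-99a, was higher in HT29, at 14581 against 4581 CPM (ratio 1.67). miR-100-3p had 160.2 CPM in HCT15 and 0 reads in HT29, so it was at least 307-fold higher against a floor of 3 HT29 reads. miR-125b-1-3p had 356 CPM in HCT15 and 1 read in HT29, with a log2 interval from -16.31 to -8.52. Its level summed over both libraries was above that of miR-125b-5p, which was also past 8-fold in HCT15 (ratio -4.93). In contrast, miR-99b-5p, whose seed is that of miR-99a-5p and miR-100-5p but whose gene lies elsewhere, was at 12096 CPM in HT29 and 8389.9 CPM in HCT15, and the sign of its ratio (0.53) changed with upper quartile scaling.

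Among the 48 miRNAs with at least 1000 CPM in both libraries, the 6 with ratios nearest 0 were miR-25-3p (-0.00), miR-221-3p (-0.03), miR-148b-3p (0.11), miR-30e-5p (0.13), miR-301a-3p (-0.14) and miR-181b-5p (0.18). miR-25-3p stood at 5677 CPM in HT29 and 5679.8 CPM in HCT15. Since scaling moved all ratios by up to -0.84, these 6 are equal only on the scale used.

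The markers of intestinal epithelium were present in both lines but in unlike amounts. In this and the lists below, each member was counted once, as its arm with the higher level summed over both libraries. miR-192-5p was 35.9-fold higher in HT29, with 92947 against 2593 CPM. miR-194-5p was at 20317 CPM in HT29 and 81.8 CPM in HCT15, 248-fold apart, and miR-215 at 5269 and 213 CPM. MIR192 and MIR194-2 are neighbours in the host transcript MIR194-2HG, at chr11:64891137-64891246 on the minus strand and chr11:64891355-64891439 on the minus strand. The fourth marker, miR-375, known from pancreatic islets and secretory gut cells, went the other way, with 904 CPM in HT29 and 10494 CPM in HCT15. Thus 3 of these 4 were at least 8-fold higher in HT29 and 1 in HCT15, beside 24.3% and 16.2% of all compared miRNAs. The median ratio was 4.89, against 0.73 over all compared miRNAs.

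Taken as their more abundant arms, all 5 members of the miR-200 family were higher in HT29. Of the 5, 1 was at least 8-fold higher, near the 24.3% of all compared miRNAs. This was miR-200c-3p, at 17630.2 CPM in HT29 and 987 CPM in HCT15. miR-141-3p, from the same chromosome 12 cluster, was at 6106 and 2868 CPM, a ratio of 1.09 beside 4.16 for miR-200c-3p. miR-200a-3p had 11441 and 2449 CPM, miR-200b-3p 17786 and 4644 CPM, and miR-429 4006 and 711 CPM. The median ratio of the family was 2.22, against 0.73 over all compared miRNAs. In HCT15 its members still summed to 11659 CPM, against 56969 CPM in HT29. The other arms went both ways. miR-200b-5p was higher in HT29, at 1366 against 41.9 CPM (ratio 5.00). miR-141-5p was higher in HCT15, at 961 against 110 CPM (ratio -3.12), and miR-200a-5p was near level (-0.11).

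Of 8 let-7 miRNAs in both files, which restrain growth and are low in embryonic cells, none was 8-fold apart by its more abundant arm. Over all compared miRNAs, 24.3% were at least 8-fold higher in HT29 and 16.2% in HCT15. let-7a-5p was at 72045 CPM in HT29 and 43716 CPM in HCT15, and 7 of the 8 had a higher level in HT29. The exception was let-7i-5p, at 2477 CPM in HT29 and 10309.9 CPM in HCT15. The ratios of let-7a-5p and let-7f-5p (both 0.72) changed sign under upper quartile scaling. Among the 3p arms, let-7b-3p was past 8-fold in HCT15, at 106 CPM against 7.82 CPM in HT29 (ratio -3.60).

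The miR-17-92 cluster and its paralogs promote proliferation and are amplified in some lymphomas. Each member was taken as its more abundant arm. Of 11 compared members, 5 were at least 8-fold higher in HT29 and none in HCT15, beside 24.3% and 16.2% of all compared miRNAs. Their median ratio was 2.93. Upper quartile scaling gave 4 in HT29, without miR-106a-5p, and 1 in HCT15. miR-18a-5p was at 7469 CPM in HT29 and 43.8 CPM in HCT15, and miR-18b-5p at 6437 and 33.6 CPM. miR-106b-5p had 10511 and 253 CPM and miR-20a-5p 10152 and 454.1 CPM. Against this direction, miR-92a-3p was higher in HCT15, at 54055 against 11138 CPM, and it was the member past 8-fold under upper quartile scaling (-3.12). Among the other arms, miR-19b-1-5p was past 8-fold in HT29 (ratio 5.92) and miR-25-5p in HCT15 (-5.54).

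miRNAs of the HOX gene clusters went both ways. miR-10a-5p, from the HOXB cluster, was 3.67-fold higher in HCT15, and miR-10b-5p, from the HOXD cluster, 3.76-fold higher at 78159 against 20788 CPM. miR-196a-5p was higher in HT29, at 3004 against 242 CPM, as was miR-196b-5p, at 1601 against 134 CPM. Within 5 members, 2 were thus at least 8-fold higher in HT29 and none in HCT15, beside 24.3% and 16.2% of all compared miRNAs. Neither was past 8-fold under upper quartile scaling, with ratios of 2.78 for miR-196a-5p and 2.73 for miR-196b-5p.

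Of 6 miRNAs often raised in colorectal tumours, 5 had higher levels in HT29, 3 of them by at least 8-fold, and 1 was at least 8-fold higher in HCT15, beside 24.3% and 16.2% of all compared miRNAs. miR-135a-5p, which targets APC, was at 789.6 CPM in HT29 and 15.5 CPM in HCT15. The sixth, miR-155-5p, best known from activated lymphocytes, was at 48 CPM in HT29 and 1823 CPM in HCT15, or 38-fold higher in HCT15. Its companions in the NF-kB linked list, miR-146a-5p and miR-146b-5p, were also higher in HCT15, by 4.58-fold and 2.09-fold. miR-34a-5p, a target of p53, was at 110.0 CPM in HT29 and 12.6 CPM in HCT15, a difference below 8-fold under upper quartile scaling (2.19).

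Smaller families gave the following. In the miR-23/27/24 group, miR-24-3p was 47.5-fold higher in HT29, at 26514 against 559 CPM, whereas miR-27a-3p had 4025 and 5801 CPM. The miR-29 family, which represses collagen genes, was higher in HT29 in 3 of 3 members, with miR-29b-3p furthest apart at 7085 against 163 CPM. All 5 members of the miR-30 list had a higher level in HT29, although the ratio of miR-30e-5p (0.13) changed sign under upper quartile scaling. Of the 5, miR-30b-5p alone was at least 8-fold higher, at 8042 against 206 CPM, beside 24.3% of all compared miRNAs. Among the other arms, miR-30c-1-3p was past 8-fold in HCT15 (ratio -5.30). miR-101-3p, a repressor of EZH2, was at 20986 CPM in HT29 and 1492 CPM in HCT15.

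miR-222-3p was 5.49-fold higher in HCT15 while miR-221-3p, from the same cluster, had a ratio of -0.03. miR-16-5p was higher in HCT15, at 5296 against 1843 CPM, and its cluster mates miR-15a-5p and miR-15b-5p were higher in HT29 by 5.01-fold and 7.08-fold. miR-210, the usual marker of low oxygen, was at 144 and 58.5 CPM. Of 5 compared miRNAs that can be made without Drosha, 4 were higher in HCT15 (all 5 under upper quartile scaling, where the ratio of miR-877-5p changed sign), among them miR-320a at 1887 against 315 CPM. The 7 compared entries whose sequences overlap other kinds of RNA were all higher in HCT15 (median ratio -1.66). Of the 7, 1 was at least 8-fold higher, beside 16.2% of all compared miRNAs. Under upper quartile scaling 2 were, beside 66 of all 284.

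The miR-183 cluster, which acts in sensory organs, was split. miR-182-5p was at 59476 CPM in HCT15 and 19107 CPM in HT29, while miR-96-5p was at 139 and 1079 CPM, 7.76-fold higher in HT29. miR-183-5p had 5389.9 CPM in HCT15 and 7484 CPM in HT29. A like split was seen in the hairpin pair within DALRD3, where miR-191-5p was higher in HCT15 and miR-425-5p, at 6975 against 931 CPM, was higher in HT29. miR-378a-3p, from an intron of the metabolic regulator PPARGC1B, was the seventh miRNA of HT29 at 22737 CPM and stood at 9178 CPM in HCT15.

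Of all compared miRNAs, 24.3% and 16.2% were past 8-fold in HT29 and HCT15. In 5 further lists no compared member, taken as its more abundant arm, was 8-fold apart. These were the miR-181 family (4 compared), the relatives of miR-130 and miR-301 (4), miR-193 with miR-365a (3), miR-28 with miR-151a (2) and the cluster of miR-424 (2). Within them miR-181c-5p was 5.47-fold higher in HCT15, at 412 against 75.4 CPM, and miR-181d was nearly level at 658 and 668 CPM. miR-151a-3p was at 19916 CPM in HT29 and 6576 CPM in HCT15, and miR-28-3p at 847 and 5346 CPM. Under upper quartile scaling miR-181c-5p (-3.28) and miR-28-3p (-3.50) were past 8-fold on the HCT15 side. Other arms of these families were past 8-fold there without that scaling. They were miR-424-3p (-5.35), miR-181c-3p (-5.29), miR-130b-5p (-3.97) and miR-454-5p (-3.96).

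Markers of other cell types were near 0 with some exceptions. miR-205-5p, a marker of squamous epithelium, was below the minimum, at 38.6 CPM in HT29 and 1.89 CPM in HCT15. None of 5 stromal miRNAs reached 50 CPM, and they summed to 9.56 CPM in HT29 and 27.8 CPM in HCT15. Of 6 blood cell miRNAs, miR-142-3p reached 385 CPM in HT29 and 2.23 CPM in HCT15, while the red cell miRNA miR-451a was at 1.74 CPM in HT29, with a listed 0 in HCT15. miR-486-5p, also a red cell miRNA, was higher in HCT15, at 43.1 CPM against 3.30 CPM in HT29, both below the minimum. The 6 summed to 410.3 CPM in HT29 and 46.3 CPM in HCT15. The muscle miRNA miR-1 had 166 CPM in HT29 parental cells and 1169 CPM in HT29 spheres, and both HCT15 libraries listed it at 0, but 4 of the other 6 muscle miRNAs were at 0 in both parental libraries and miR-133a, its cluster mate, was at 0.695 CPM in HT29. Whether cells of another type had any part in the levels of miR-142-3p or miR-1 was not tested. The endothelial miRNA miR-126-5p passed the minimum in both lines, at 162 CPM in HT29 and 115 CPM in HCT15. Its opposite arm, miR-126-3p, was further apart, at 133 CPM in HT29 and 12.3 CPM in HCT15 (ratio 3.34). The liver miRNA miR-122-5p was at 0.174 CPM in HT29 and 0.315 CPM in HCT15. Of the neural list, miR-128 alone passed 50 CPM, at 1251 and 604 CPM. None of 15 miRNAs of the Xq27.3 cluster and none of 42 listed miRNAs of the imprinted DLK1-DIO3 region reached 50 CPM, and the latter summed to 58.2 CPM in HT29 and 4.10 CPM in HCT15. Of 37 miRNAs of the placental cluster C19MC, 3 were at 0 in HCT15 and 29 in HT29. The 2 that reached 50 CPM did so through HCT15 alone: miR-516a-5p was at 65 CPM there and 0.348 CPM in HT29, and miR-1283 was at 50.7 CPM with 0 reads in HT29.

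Since miRNAs with the same seed share many targets, levels were also summed by seed. A RefSeq sequence was found for 1593 of the 1882 names, which held 91.1% of the HT29 and 88.2% of the HCT15 level. Of 60 seed families with at least 1000 CPM in either library, 15 were at least 8-fold higher in HT29 and 12 in HCT15. Of the 284 compared miRNAs taken singly, 24.3% and 16.2% were. The family of miR-21-5p and miR-590-5p was first in HT29, at 176340.1 CPM, and let-7 was first in HCT15, at 99794 CPM. The seed of miR-17-5p, miR-20a-5p, miR-93-5p and their relatives summed to 38555 CPM in HT29 and 4089 CPM in HCT15. The seed of miR-372 and miR-373-3p, AAGUGCU, overlaps that seed, AAAGUGC, with a shift of 1 base, and it summed to 37.7 CPM in HT29 and 62522 CPM in HCT15.

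Members of a family did not always differ alike. In 12 of 37 families with at least 2 compared members, the ratios spanned 3 log2 units or more, with a median span of 1.91 over the 37. The seed of miR-148a-3p was carried by 2539 CPM in HT29 and 36236 CPM in HCT15. Of the latter, 34419 CPM were miR-148a-3p. In HT29 the most abundant member was miR-148b-3p, at 1849 CPM, which was also at 1709.6 CPM in HCT15. In the miR-92 family, miR-92b-3p had a ratio of -7.25 and miR-92a-3p of -2.28, while miR-25-3p was at -0.00 and miR-32-5p was higher in HT29 with a ratio of 5.23. The seed shared by miR-34a-5p and miR-449b-5p was led by miR-34a-5p in HT29 and by miR-449b-5p in HCT15. miR-590-5p, which has the seed of miR-21-5p, was 589.6-fold higher in HT29, at 557 against 0.944 CPM, but added little to the family's sum.

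Hairpins that lie close together on 1 strand are often cut from 1 primary transcript. With a limit of 10000 bases between neighbours, 19 clusters held at least 2 compared miRNAs whose mature sequence comes from a single locus, 45 miRNAs in all. The median span of ratios within such a cluster was 3.07 log2 units between the parental lines and 3.20 between their spheres. Between spheres and parental cells of 1 line it was 1.02 in HT29 and 0.291 in HCT15. In 10 of the 19 clusters the span between parental lines was at least 3, and in 3 of them members differed by at least 2-fold in opposite directions. These figures used 1 arm per hairpin, among arms with a RefSeq sequence, and left out some compared members, such as miR-183-5p. The hairpin beside miR-191 entered as miR-425-3p (ratio 0.29). Its more abundant arm miR-425-5p (2.90) lacked a sequence, and against miR-191-5p (-3.71) it would add another cluster with opposite directions. In the miR-99a and let-7c cluster, miR-99a-5p had a ratio of -4.75 and let-7c of 1.67. In the MCM7 intron cluster, miR-106b-5p was at 5.37 and miR-25-3p at -0.00. The miR-371-373 cluster was more even, with ratios from -11.52 to -10.17. Apart from the added 1 CPM, these spans do not depend on how the libraries were scaled. Which clusters had opposite directions does depend on it. Under upper quartile scaling let-7c fell below 2-fold (0.83), whereas miR-23a-3p (1.43) and its neighbour miR-27a-3p (-1.37) were past 2-fold in opposite directions.

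**Figure D3:**
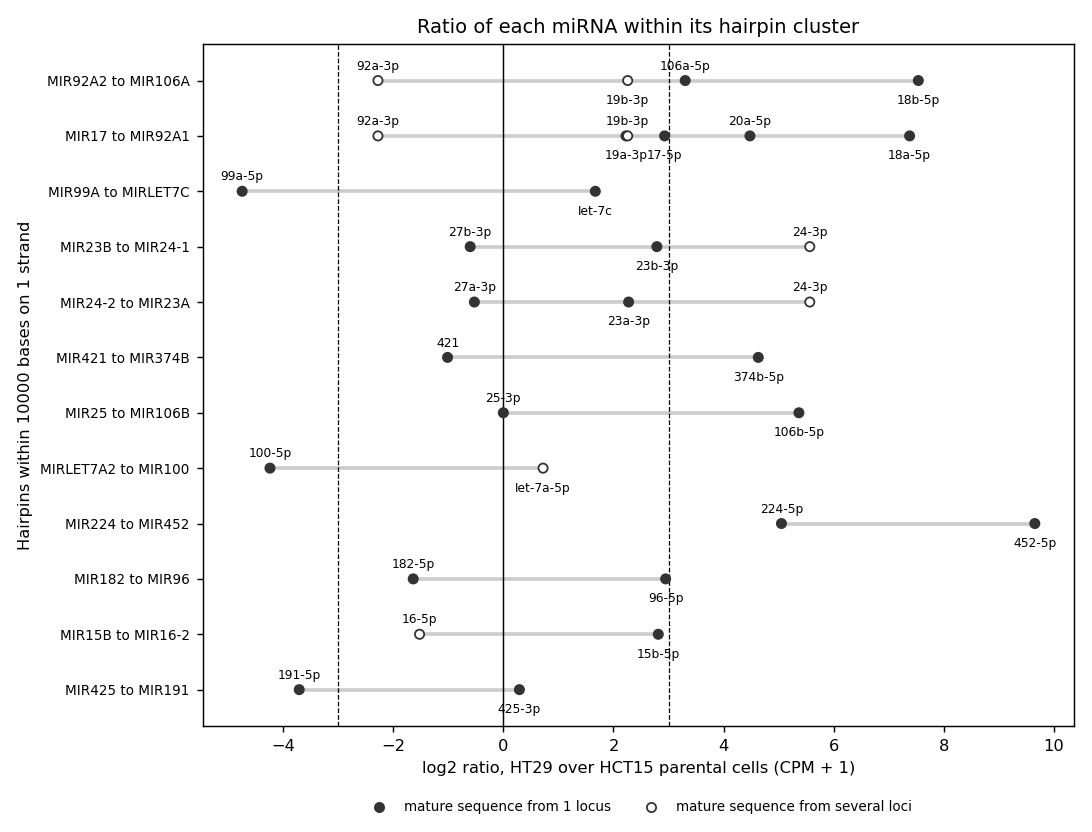
Log2 ratio of HT29 over HCT15 parental cells for 12 hairpin clusters, 1 row per cluster. Each point is 1 compared miRNA, with 1 arm per hairpin and some members not shown, and the grey bar is the span. Open circles are mature sequences made from several loci. Dashed lines mark 8-fold differences; in the MIR17 to MIR92A1 row the points run from miR-92a-3p at -2.28 to miR-18a-5p at 7.38.

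The arms of a hairpin come from the same precursor, so their shares within a library are also free of scaling. Both arms were listed for 505 hairpins, of which 100 had at least 50 CPM over both arms in each parental library. The leading arm was not the same in 14 of the 100. The 5p arm led in HT29 and the 3p arm in HCT15 for 10 of them, and the reverse held for 4. The median difference in 5p share was 3.76 percentage points between the lines, against 0.543 between parental cells and spheres of HT29 and 0.919 between those of HCT15. Between the lines the difference was at least 10 points in 33 hairpins and at least 50 points in 7. Within a line the leading arm also changed between parental cells and spheres, in 7 of the 100 hairpins in HT29 and 3 in HCT15. The largest such shifts in 5p share were 28.8 points in HT29 and 33.1 points in HCT15.

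The largest shift was in miR-671, from an exon of CHPF2. Its 5p arm made up 98.7% (97.8 to 99.3) in HT29 and 3.81% (3.04 to 4.48) in HCT15, as a share of both arms with exact 95% binomial intervals in brackets, and spheres gave 99% and 7.15%. For miR-18a the 5p shares were 99.1% (99 to 99.2) in HT29 and 31.9% (27.4 to 36.4) in HCT15. For miR-106b they were 93.3% (93.1 to 93.5) in HT29 and 27.2% (25.9 to 29.1) in HCT15. In both hairpins the 3p arm lay within 2-fold between the lines, with ratios of -0.41 for miR-18a-3p and 0.16 for miR-106b-3p, while the 5p ratios were 7.38 and 5.37. The arms of these hairpins not shown above read as follows.
miR-671-5p: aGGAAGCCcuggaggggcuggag
miR-671-3p: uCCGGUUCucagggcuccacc
miR-18a-3p: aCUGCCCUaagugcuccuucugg
miR-106b-5p: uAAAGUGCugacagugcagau
miR-106b-3p: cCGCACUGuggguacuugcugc
Among the other hairpins with the largest shifts, the 5p share was 99% (97.4 to 99.7) in HT29 and 33.6% (28.3 to 38.7) in HCT15 for miR-424. It was 58.1% (56.8 to 59.4) in HT29 and 1.63% (0.332 to 4.62) in HCT15 for miR-590. For miR-28 it was 57.7% (56.8 to 58.6) in HT29 and 4.25% (3.96 to 4.56) in HCT15. The opposite was seen for miR-589, at 30.7% (29.7 to 31.8) in HT29 and 81.2% (79.1 to 83.8) in HCT15. Of the 14 hairpins, 5 also had unlike leading arms in spheres, and these were miR-671, miR-106b, miR-335, miR-324 and miR-574.

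**Figure D4:**
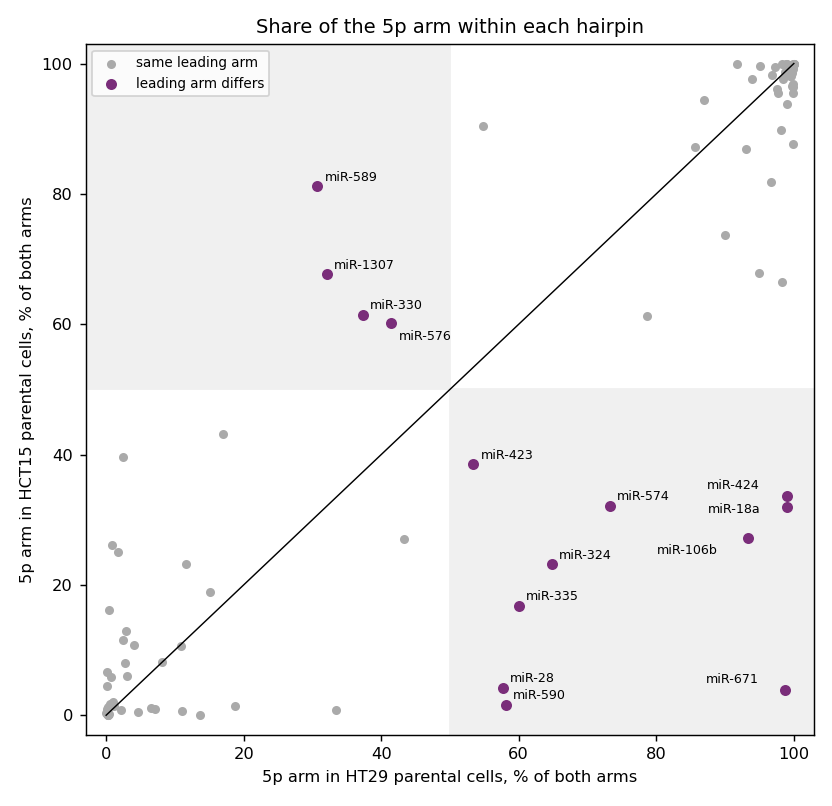
Share of the 5p arm among both arms of 100 hairpins, in percent, in HT29 (x axis) and HCT15 (y axis) parental cells, with 1 library per axis. Purple points in the shaded areas are the 14 hairpins whose leading arm differed, 10 of them at the lower right; the line marks equal shares.

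The ratio varied with the base composition of the mature miRNA, a property looked at after the values were known. Over the 252 compared miRNAs with a RefSeq sequence, the rank correlation of the ratio with the share of G and C was -0.32, and between spheres it was -0.24. For the ratio of spheres over parental cells within a line it was 0.17 in HT29 and -0.17 in HCT15. The median G and C content was 43.5% for the 62 of these miRNAs that were 8-fold higher in HT29, 50% for the 42 that were 8-fold higher in HCT15 and 47.8% for the rest. Below 40% G and C the median ratio was 2.33, and it was -0.50 from 50% to 55% and -0.08 above. By the last base of the mature sequence, the median ratio was 1.99 for G, 1.79 for A, 0.11 for U and -0.74 for C. These features move with the line, and with the medium and processing that differ with it. Their part in single miRNA ratios was not tested.

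**Figure D5:**
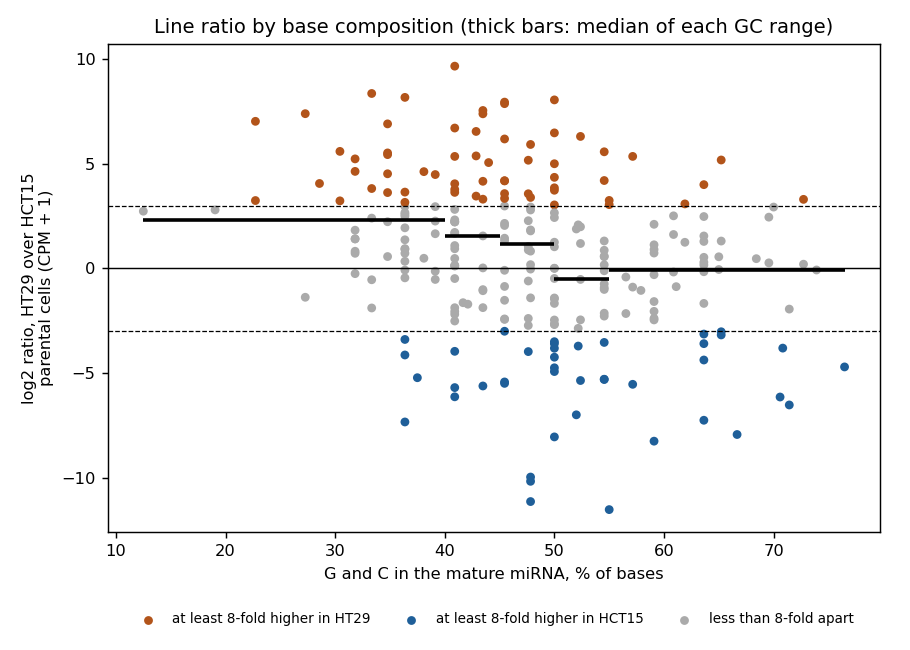
Log2 ratio of HT29 over HCT15 parental cells against the share of G and C in the mature miRNA, in percent, for 252 miRNAs. Points are orange or blue where a miRNA was at least 8-fold higher in HT29 or HCT15 and grey otherwise, and thick bars give the median of each range, from 2.33 below 40% to -0.08 above 55%.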

How the data were processed

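Small RNA was sequenced from 1 library per group. Per the file headers, the authors deposited a read count for each miRNA of HT29 and an RPKM for each of HCT15. Names are given as from miRBase release 19, but there were 1921 names for HT29 and 2041 for HCT15. For HT29 miR-98 stood under its older name, so a single release for both lines is not certain. The submitters' processing notes name the build as hg19. How reads were trimmed, aligned and assigned is not given in the sources used here. The treatment of shared sequences differed between the files: of names with identical mature sequences, all 3 sets above 0 had equal values in HT29, against 3 of 8 sets in HCT15.

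A low HCT15 value was a near-whole multiple (within 0.05 reads) of a step that rose with mature length, from 0.157 at 20 bases to 0.164 at 23, for 74.5% of 474 values. It therefore behaved as a value per read and not per kilobase of mature sequence, and was used as proportional to reads.

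Names were matched as written. Of the names, 198 stood in 1 file only and were left out. Each library was rescaled to 1000000 over the 1882 shared names with Python 3.11.15, numpy 2.4.6, pandas 2.3.3 and scipy 1.17.1. A pseudocount of 1 CPM, a minimum of 50 CPM in at least 1 parental library and a fold of 8 were used, with no test. The calculation was tested on simulated data. Named miRNAs were the 10 most abundant per library, the 15 highest and 15 lowest ratios from 100 CPM, up to 4 per list of 35 lists, the 10 largest arm shifts, the leading seed families and the 6 ratios nearest 0. miRNAs outside this rule that are named (let-7b-3p, miR-106a-5p, miR-125b-5p, miR-126-3p, miR-130b-5p, miR-140-5p, miR-141-5p, miR-17-5p, miR-181c-3p, miR-19b-1-5p, miR-200a-5p, miR-200b-5p, miR-22-5p, miR-224-5p, miR-302a-3p, miR-302b-3p, miR-302c-3p, miR-302d-3p, miR-30c-1-3p, miR-32-5p, miR-425-3p, miR-454-5p, miR-502-3p, miR-625-3p) were picked once their values had been seen. The comparison, lists and rules were chosen with earlier results of these data known. Sequences and hairpin positions came from RefSeq (GRCh38.p14), host genes from GENCODE 29, and no position was converted from hg19. Alternatives were other scalings, pseudocounts, minimums, folds, name matching, a length correction and the sphere libraries.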

Additional observations from a re-analysis of the deposited data

Results flagged for a closer look

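Only 3 miRNAs were at least 2-fold apart in one direction between the parental lines and at least 2-fold apart in the other between their spheres, and the change was not tested. The log2 ratio of HT29 over HCT15 was 1.19 in parental cells and -1.67 in spheres for miR-31-5p, and 1.03 and -1.21 for miR-502-3p. For miR-1246, an entry that overlaps a small nuclear RNA, it was -1.71 in parental cells and 1.93 in spheres.

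Some miRNAs above 50 CPM were named in the file of 1 line only and entered no comparison. In HT29 these were miR-203 at 5815 CPM, miR-98 at 2104 CPM, miR-3545-3p at 479.976 CPM, miR-3934 at 255 CPM and miR-549 at 107 CPM. In HCT15 they were miR-98-5p at 1974 CPM, miR-203a at 1717 CPM, miR-937-3p at 116 CPM and miR-98-3p at 78.4 CPM. These CPM values are over all names of a file. Absence of a name says nothing of its level, and miR-98 and miR-98-5p are the same strand under an older and a newer name. The names miR-203 and miR-203a likewise differ only by a letter, and neither can be read as particular to its line.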

How the results depend on the processing

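No paired analysis was possible because each group has 1 library, and for the same reason no library could be left out. The counts of 69 and 46 miRNAs moved with the thresholds. On the HT29 side the count was 113 with a minimum of 10 CPM, 117 with no minimum, 45 at 16-fold and 19 with 50 CPM required in both libraries, a setting chosen after seeing the data. On the HCT15 side it was 28 with a minimum of 200 CPM, 70 with no minimum, 30 at 16-fold and 12 with 50 CPM in both. The share of such miRNAs that were higher in HT29 was 60.0% as reported and 41.6% with upper quartile scaling (47 and 66). TMM scaling gave 61 and 48 (56.0% in HT29). The shifts in all ratios were -0.25 with TMM and -0.84 with the upper quartile. Of 168 named miRNAs, 20 changed sign under some scaling, and none of the 64 named ones past 8-fold did. The 50 most abundant names of each library shared 30 and the 20 most abundant shared 6. The 27 seed families past 8-fold were 17 in spheres. Unlike leading arms were seen in 14 hairpins between parental cells and in 7 between spheres, the latter among hairpins with 50 CPM in both sphere libraries. Depth limits the scarce partner of each extreme ratio: 1 read was worth 0.174 CPM in HT29 and 0.315 CPM in HCT15.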
